A study of Mus musculus with 27 samples.

Results

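Of 27 RNA-seq libraries of sorted mouse cells, 8 carried the messenger of a leukocyte surface antigen at a high level and 19 hardly any, and the leukocyte content of those 8 and the genes that separate them from the other 19 are described here. The members were selected on Ptprc, which encodes CD45, in CPM, a gene's reverse-strand read count per 1000000 reads in genes of the library. Libraries above 100 CPM form the leukocyte side, and the remaining libraries, all below 10 CPM, form the stromal side. Labels were not used, because they disagree with the sort genes. Every mouse was a 12-week-old NOD/ShiLtJ animal, a strain that develops autoimmune diabetes. TG+ animals carry Ins2-CCL21, in which an insulin promoter drives the chemokine CCL21 in pancreatic beta cells, and TG- animals lack it.

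On the leukocyte side, 5 libraries were labelled lymph node FRC (2 TG-, 3 TG+), where FRC stands for the fibroblastic reticular cells of skin-draining nodes. The other 3 carried islet labels, 1 each for CD45, gp38-high and gp38-low, all TG-. The stromal side held 17 libraries labelled islet (7 CD45, 3 gp38-high, 7 gp38-low) and 2 labelled lymph node FRC, with 9 TG- and 10 TG+ in all. Both sides therefore hold libraries whose label names the other kind of cell, and no TG+ library with an islet label is among the 8. A library is named below by its label, genotype and replicate number, so that gp38-low TG- 1 is the library labelled islet gp38-low TG-, replicate 1.

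Leukocytes share a set of signalling and cytoskeletal genes from their origin in the bone marrow, and each lineage adds its own antigen receptor or scavenging genes. B cells signal through CD79, T cells through CD3, and macrophages are known for complement C1q and the receptor for colony stimulating factor. In lymph nodes and in the lymphocyte infiltrates of diabetic islets, fibroblasts that bear podoplanin make chemokines and survival cytokines whose receptors sit on the leukocytes.

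The leukocyte side held 8517844 to 18498846 reads in genes per library and the stromal side 8959919 to 25194443. A count of 0 allows up to 3 counts, which is 0.119 to 0.352 CPM depending on the library, and covers counting error only. A single non-coding RNA, Gm26917, took 20.8% to 36.0% of the reads in genes on the leukocyte side and 5.31% to 22.2% on the stromal side, which lowers the CPM of every other gene unevenly. The median log2 ratio of the sides over 15155 genes was -0.30 by CPM, -0.03 with TMM factors (edgeR's scaling by trimmed means) and 0.04 when Gm26917, mitochondrial and immunoglobulin genes were left out of the total. Because Ptprc chose the sides, every comparison between them is a description with no test.

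Ptprc (ENSMUSG00000026395.16, chr1:138062861-138175708, minus strand) measured 261 CPM in CD45 TG- 4, 451 in gp38-high TG- 2, 679 in gp38-low TG- 1, and 633 and 169 in lymph node FRC TG- 3 and TG- 4. It measured 228, 627 and 568 CPM in lymph node FRC TG+ 2, TG+ 3 and TG+ 4. On the stromal side it ran from 0.175 through a median of 1.13 to 5.79 CPM. The library nearest above the threshold was lymph node FRC TG- 4 at 169 CPM, and the nearest below was CD45 TG+ 3 at 5.79 CPM. Pdpn (ENSMUSG00000028583.14, chr4:143267431-143299564, minus strand) encodes podoplanin, the gp38 of the labels. It was listed at 0 CPM in lymph node FRC TG+ 3 and TG+ 4 and reached at most 1.01 CPM, in lymph node FRC TG- 3, among the 8. On the stromal side it ran from 51.1 through 93.3 to 218 CPM, so no library was high in both genes. Low counts were present: 3 to 98 of Ptprc on the stromal side and 0 to 13 of Pdpn on the leukocyte side.

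**Figure D1:**
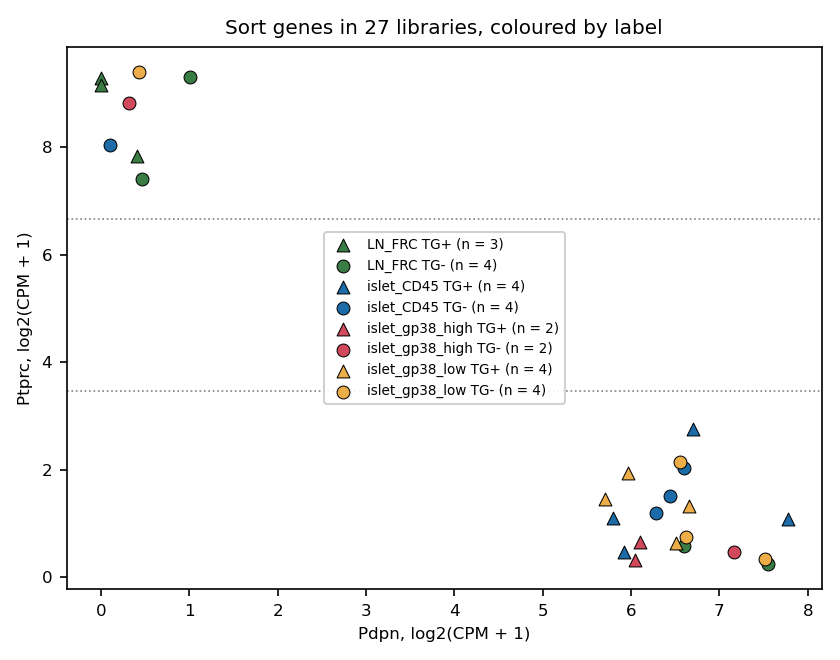
Ptprc against Pdpn in 27 libraries, both axes as log2(CPM + 1), coloured by the label and shaped by genotype; dotted lines mark 10 and 100 CPM of Ptprc. The 8 libraries at the upper left lie between 169 and 679 CPM of Ptprc and include 5 labelled lymph node FRC, while 7 of the 8 labelled CD45 lie at the lower right.

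Of the 15155 genes with a median of at least 1 CPM on either side, 2082 (13.7%) were higher in every leukocyte-side library than in every stromal-side library, and 3070 (20.3%) were the reverse. Such genes are called split. Since the rule used this contrast, nothing is read from these shares. They are the shares beside which each count of split list members below stands. With Gm26917, mitochondrial and immunoglobulin genes left out of the total, 3140 genes were split toward the leukocyte side and 2611 toward the stromal side, so that the leukocyte share of split genes was 54.6% in place of 40.4%. With TMM factors that share was 47.9%. Of 359 listed marker genes, 10 had another call with TMM factors and 9 with the reduced total.

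Profiles on the leukocyte side were alike across the labels. The Pearson correlation of log2 CPM across these genes was 0.929 to 0.993 over 28 pairs of leukocyte-side libraries, 0.800 to 0.994 over 171 stromal pairs, and 0.466 to 0.577 over 152 pairs that cross the sides. These are correlations across genes, which are not independent replicates. The nearest library to CD45 TG- 4 was lymph node FRC TG+ 2 (0.993), and gp38-low TG- 1 was nearest to lymph node FRC TG- 3 (0.992). Gp38-high TG- 2 was nearest to lymph node FRC TG- 4 (0.984). Each islet-labelled library was closest to a library with a lymph node label, but such labels were also the most common among the 8 (3 TG+ and 2 TG-). Nothing is read from these neighbours about the labels. The smallest chi-square per degree of freedom between counts of 2 of the 8 was 7.25, so none of them differed by as little as sampling noise.

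Genes that nearly all leukocytes use were split in 19 of 20 cases, 1 of which is Ptprc, whose split the selection fixed. Coro1a, an actin-binding protein of blood cells, measured 1105 to 1756 CPM over the 8 libraries with a median of 1378, and 0.263 to 6.31 CPM on the stromal side. Laptm5, a lysosomal membrane protein of lymphoid and myeloid cells, measured 683 to 1493 CPM against 0.0526 to 3.6 CPM. Lcp1, the actin bundler L-plastin, measured 711 to 1204 CPM against 0.516 to 29.0 CPM. Arhgdib was the split member with the highest stromal level, at 1.94 to 80.8 CPM against 481 to 833 CPM. Srgn, the granule proteoglycan serglycin, overlapped: it measured 67.7 to 274 CPM on the leukocyte side and up to 139 CPM on the stromal side.

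The 8 ITAM adaptor genes, whose products carry the tyrosine motif by which antigen and Fc receptors signal, were all split. Their summed CPM was 1232 to 1996 over the 8 libraries and 1.23 to 13.2 on the stromal side. Tyrobp, the adaptor of natural killer and myeloid receptors, measured 55.5 to 282 CPM against at most 0.728 CPM. Fcer1g, the Fc receptor gamma chain, measured 19.3 to 118 CPM against at most 0.366 CPM.

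The promoters of these 2 lists are shown because the members move together between the sides. Of 27 split genes in the lists, 20 had an entry among RefSeq promoters of GRCm38.p6, which hold 250 bases before to 50 after a start, and 10 of the 20 held AGGAAGT on either strand, letters of the type bound by Ets family factors. The 4 with the highest median CPM among those 10 are printed for the 250 bases before the start, 5′ to 3′ along the gene's strand, with the match in capitals. They are Ptpn6 (chr6:124738710-124738959, minus strand), a phosphatase that damps receptor signals, and Ptprc (chr1:138175306-138175555, minus strand). Cd79a (chr7:24897247-24897496, plus strand) and Cd37 (chr7:45238840-45239089, minus strand), a B cell tetraspanin, complete them. Promoters of 2 genes on the stromal side, Pdpn (chr4:143299565-143299814, minus strand) and Pdgfra (chr5:75152001-75152250, plus strand), hold no match and are given beside them. These 2 were picked by name, and the 4 were taken only from promoters with a match, so the printed contrast follows from the choice. Of 2183 promoters of genes split toward the stromal side, 128 held a match.
Ptprc: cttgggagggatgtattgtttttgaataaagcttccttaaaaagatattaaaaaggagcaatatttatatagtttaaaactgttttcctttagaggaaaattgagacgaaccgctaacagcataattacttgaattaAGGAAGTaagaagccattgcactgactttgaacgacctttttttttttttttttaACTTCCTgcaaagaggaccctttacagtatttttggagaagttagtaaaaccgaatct
Cd79a: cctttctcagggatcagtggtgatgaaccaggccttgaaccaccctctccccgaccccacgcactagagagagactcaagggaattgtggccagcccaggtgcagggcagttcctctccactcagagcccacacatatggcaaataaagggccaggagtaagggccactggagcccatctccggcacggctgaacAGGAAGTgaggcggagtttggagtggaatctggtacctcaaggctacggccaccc
Ptpn6: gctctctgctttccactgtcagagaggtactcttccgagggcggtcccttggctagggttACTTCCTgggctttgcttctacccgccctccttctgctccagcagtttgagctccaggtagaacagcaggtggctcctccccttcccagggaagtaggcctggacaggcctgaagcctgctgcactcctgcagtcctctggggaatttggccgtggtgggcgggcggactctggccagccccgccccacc
Cd37: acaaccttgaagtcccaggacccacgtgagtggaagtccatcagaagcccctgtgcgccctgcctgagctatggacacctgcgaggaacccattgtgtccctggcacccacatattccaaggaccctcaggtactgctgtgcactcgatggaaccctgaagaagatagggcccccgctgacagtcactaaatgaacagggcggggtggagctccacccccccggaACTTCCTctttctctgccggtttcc
Pdpn: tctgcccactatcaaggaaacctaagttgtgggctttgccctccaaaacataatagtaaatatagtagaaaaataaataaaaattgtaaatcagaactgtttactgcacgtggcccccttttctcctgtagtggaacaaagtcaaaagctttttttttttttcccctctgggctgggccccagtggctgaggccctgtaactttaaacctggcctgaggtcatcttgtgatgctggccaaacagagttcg
Pdgfra: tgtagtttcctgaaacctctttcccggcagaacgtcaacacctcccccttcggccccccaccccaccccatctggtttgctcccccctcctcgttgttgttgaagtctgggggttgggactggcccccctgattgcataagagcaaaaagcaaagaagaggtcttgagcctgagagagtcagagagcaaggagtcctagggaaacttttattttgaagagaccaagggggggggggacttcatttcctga
Ptprc held 2 matches, 113 and 58 bases before its start, and the matches of Cd79a, Ptpn6 and Cd37 began 55, 190 and 25 bases before theirs. These are RefSeq starts, with a single entry kept per gene, and they differ from the gene coordinates given in this report, which come from another annotation. By those coordinates the matches of Ptprc and Cd79a lie inside the gene.

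Over all protein-coding genes with an entry, AGGAAGT on either strand stood in 262 of 1313 promoters (19.95%) of genes split toward the leukocyte side. It stood in 128 of 2183 (5.86%) of those split toward the stromal side, in 9.42% of all described genes and in 9.57% of the 27025 promoters of the table. TGTGGTT, of the type read by Runx factors, stood in 6.55% of leukocyte-side, 2.84% of stromal-side, 3.75% of described-gene and 5.37% of all promoters. GGAATG, of the type read by TEAD factors, stood in 9.60% and 15.6% on the sides, in 11.9% for described genes and in 14.6% of all. The GC box GGGCGG stood in 52.5% and 64.5% on the sides, in 63.6% for described genes and in 35.9% of all. All were searched on both strands. The 4 motifs do not contain one another, and a match is a run of letters, not a bound site. The windows are 300 bases in every group.

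B cell genes were split in 16 of 19 measured cases, with a median ratio of the sides of 484-fold when values under 3 counts are raised to 3 counts. Cd79a (ENSMUSG00000003379.7, chr7:24897381-24902197), the alpha chain of the B cell receptor complex, measured 754 CPM in CD45 TG- 4, 624 in gp38-high TG- 2 and 290 in gp38-low TG- 1. It measured 363 and 549 CPM in lymph node FRC TG- 3 and TG- 4, and 725, 267 and 410 CPM in TG+ 2, TG+ 3 and TG+ 4. The stromal side held 0.112 to 2.92 CPM, with a median of 1.02. Its partner Cd79b measured 236 to 510 CPM against at most 1.64 CPM, and the coreceptor gene Cd22 216 to 595 CPM against at most 2.07 CPM. Fcer2a, the low-affinity IgE receptor of follicular B cells, measured 111 to 402 CPM against at most 1.95 CPM. Cr2, a complement receptor of B cells and follicular dendritic cells, had a wider stromal range of 0 to 34.0 CPM against 54.2 to 112 CPM.

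Antibody genes were among the most abundant messengers of the leukocyte side. Per kilobase of exon (RPKM, CPM divided by exon length in kilobases), Igkc, the kappa light chain, had the highest median of all listed genes at 5513 RPKM, and Ighm, the mu heavy chain, reached 2479 RPKM. Of 12 constant-region genes, 11 were split, and their summed CPM was 7168 to 19670 against 3.23 to 74.8 on the stromal side. Igha, of mucosal antibody, measured 842 to 2954 CPM, and Ighg2b 290 to 1040.5 CPM. Ighg3 overlapped: it measured 4.16 CPM in lymph node FRC TG- 4, 4.37 in TG+ 4 and 17.7 in TG+ 2 against 108 to 291 CPM in the other 5, and up to 24.8 CPM on the stromal side. Ighe, of IgE, measured 4.87 to 65.4 CPM, highest in lymph node FRC TG- 4. The lambda genes Iglc1, Iglc2 and Iglc3 are near-identical copies, so their single values are uncertain.

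Germinal centre and plasma cell genes were split in 10 of 14 cases. Mzb1, a plasma and marginal zone B cell protein, measured 82.2 to 144 CPM against at most 0.647 CPM. Jchain, which joins IgA and IgM polymers, spread widely among the 8, from 82.3 CPM in lymph node FRC TG+ 2 to 1214 CPM in TG+ 3. Bcl6, Xbp1, Sdc1 and S1pr2 overlapped, and S1pr2, a sphingosine phosphate receptor, had the higher median on the stromal side, 83.6 against 29.5 CPM. Xbp1, a factor of secretory cells, measured 113 to 216 CPM among the 8 and 136 to 319 CPM on the stromal side.

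Ebf1, Spib and Blnk were the members of the B cell list that overlapped. Ebf1, a B cell commitment factor, measured 36.2 to 83.8 CPM on the leukocyte side and 16.8 to 261 CPM, with a median of 155, on the stromal side. Spib, an Ets factor of B cells, measured 114 to 349 CPM among the 8 and up to 246 CPM on the stromal side. Blnk, the B cell linker, overlapped at its edge (64.7 to 112 against 3.46 to 84.6 CPM), and under either of the other 2 scalings its sides no longer overlapped.

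T cell genes were split in 21 of 22 cases, with a median ratio of 332-fold. Cd3e (ENSMUSG00000032093.7, chr9:44998740-45009627, minus strand), a chain of the T cell receptor complex, measured 309 CPM in CD45 TG- 4, 254 in gp38-high TG- 2, 196 in gp38-low TG- 1, and 221 and 268 in lymph node FRC TG- 3 and TG- 4. It measured 379, 132 and 175 CPM in TG+ 2, TG+ 3 and TG+ 4, and 0.112 to 9.89 CPM on the stromal side. Lck, the kinase that starts T cell receptor signalling, measured 174 to 357 CPM against at most 3.84 CPM, and Tcf7, a factor of naive and memory T cells, 113 to 400 CPM against at most 8.0 CPM. Thy1 overlapped: this surface protein of mouse T cells and of fibroblasts measured 112 to 239 CPM among the 8 and 9.65 to 407 CPM on the stromal side. Trbc1 and Trbc2 are near-identical copies and were both split.

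Genes of T cell subsets were split in 10 of 14 cases. Cd4, the coreceptor of helper T cells, measured 100 to 270 CPM, and Cd8a, of cytotoxic T cells, 59.1 to 101 CPM, with at most 0.671 and 0.946 CPM on the stromal side. Foxp3, the factor of regulatory T cells, measured 9.39 to 19.3 CPM against at most 0.504 CPM, and Ctla4, an inhibitory receptor, 12.9 to 66.1 CPM against at most 0.274 CPM. Il2ra, Ikzf2, Lag3 and Zbtb7b overlapped, Zbtb7b with another call under both other scalings, and Lag3 reached 103 CPM on the stromal side against 13.8 to 51.3 CPM among the 8. All 13 cytotoxic and natural killer genes were split at low levels: their summed CPM was 90.9 to 383 against 0.252 to 1.56. Ifng, interferon gamma, had another call with TMM factors. Ccl5, a chemokine of effector T cells, measured 15.3 to 127 CPM, and Nkg7, a granule protein, 16.3 to 66.2 CPM. Ncr1, the natural killer receptor NKp46, measured 1.63 to 13.0 CPM and was listed at 0 in all 19 stromal-side libraries.

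Macrophage and monocyte genes were split in 15 of 20 cases. C1qa (ENSMUSG00000036887.5, chr4:136895917-136898803, minus strand), a chain of complement C1q, measured 195 CPM in CD45 TG- 4, 476 in gp38-high TG- 2, 992 in gp38-low TG- 1, and 927 and 740 in lymph node FRC TG- 3 and TG- 4. It measured 193, 1347 and 366 CPM in TG+ 2, TG+ 3 and TG+ 4, and at most 0.833 CPM on the stromal side. Lyz2, lysozyme, measured 739 to 4506 CPM against 0.158 to 6.35 CPM, and Mrc1, the mannose receptor, 49.2 to 1083 CPM against at most 5.37 CPM. Per kilobase Lyz2 had a median of 1773 RPKM and C1qa 584 RPKM. Apoe, Cd14, Mertk and Ly6c2 were among those that overlapped. Apoe, apolipoprotein E, measured 428 to 2495 CPM among the 8 and 675 to 16123 CPM on the stromal side.

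Dendritic cell genes were split in 11 of 15 cases. Flt3, the receptor by which dendritic cells are maintained, measured 27.6 to 62.1 CPM against at most 0.366 CPM, and Irf8, a factor of cross-presenting and plasmacytoid dendritic cells, 285 to 464 CPM against 6.80 to 228 CPM. Xcr1, of cross-presenting cells, measured 9.57 to 24.0 CPM, and Siglech, of plasmacytoid cells, 6.80 to 28.3 CPM. Zbtb46, Bst2, Fscn1 and Tcf4 overlapped, and Tcf4 had the higher median on the stromal side, 100.04 against 43.99 CPM. Granulocyte and mast cell genes were scarce: 6 of 8 described members were split, with Csf3r the highest of the 6 at a median of 25.3 CPM. Kit, at a median of 42.7 CPM, overlapped, and Epx was listed at 0 in 7 of 8 libraries. The red cell gene Hbb-bs measured 1.30 to 16.1 CPM in 7 libraries and 66.8 CPM in lymph node FRC TG- 3.

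All 10 MHC class II genes, which present peptide to helper T cells, were split. Cd74 (ENSMUSG00000024610.14), the invariant chain, measured 7171 CPM in CD45 TG- 4, 8734 in gp38-high TG- 2, 5762 in gp38-low TG- 1, and 5703 and 7982 in lymph node FRC TG- 3 and TG- 4. It measured 6814, 5971 and 3931 CPM in TG+ 2, TG+ 3 and TG+ 4. On the stromal side it ran from 7.88 through 97.4 to 197 CPM. H2-Aa measured 3287 to 4746 CPM against 2.09 to 65.7 CPM, and the transactivator gene Ciita 293 to 476 CPM against 0.288 to 6.31 CPM. H2-Oa and H2-Ob, which restrain peptide loading in B cells, stood at 51.0 to 104 and 126 to 207 CPM against at most 0.274 and 1.89 CPM. Cd74 was the second-highest listed gene of the leukocyte side per kilobase, at 3807 RPKM.

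The balance of lineages differed among the 8 libraries. Cd79a and Cd79b together were 1.43 to 2.59 times Cd3d, Cd3e and Cd3g together, lowest in gp38-low TG- 1 and highest in CD45 TG- 4. The 3 C1q genes together were 0.805 times the Cd3 genes in lymph node FRC TG+ 2, 0.947 times in CD45 TG- 4 and 12.1 times in lymph node FRC TG+ 3, and between 2.56 and 6.36 times in the other 5. C1q relative to Cd3 therefore spanned 15.1-fold and Cd79 relative to Cd3 1.81-fold. Cd4 was 0.872 to 2.60 times the sum of Cd8a and Cd8b1. Ighm was 5.19 times Ighd in lymph node FRC TG+ 2 and 30.1 times in TG+ 3. These ratios use CPM that is not divided by exon length, so they are not ratios of cells, and only their spread across libraries can be compared. In bulk samples, fewer cells of a type and less RNA per cell cannot be told apart.

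**Figure D2:**
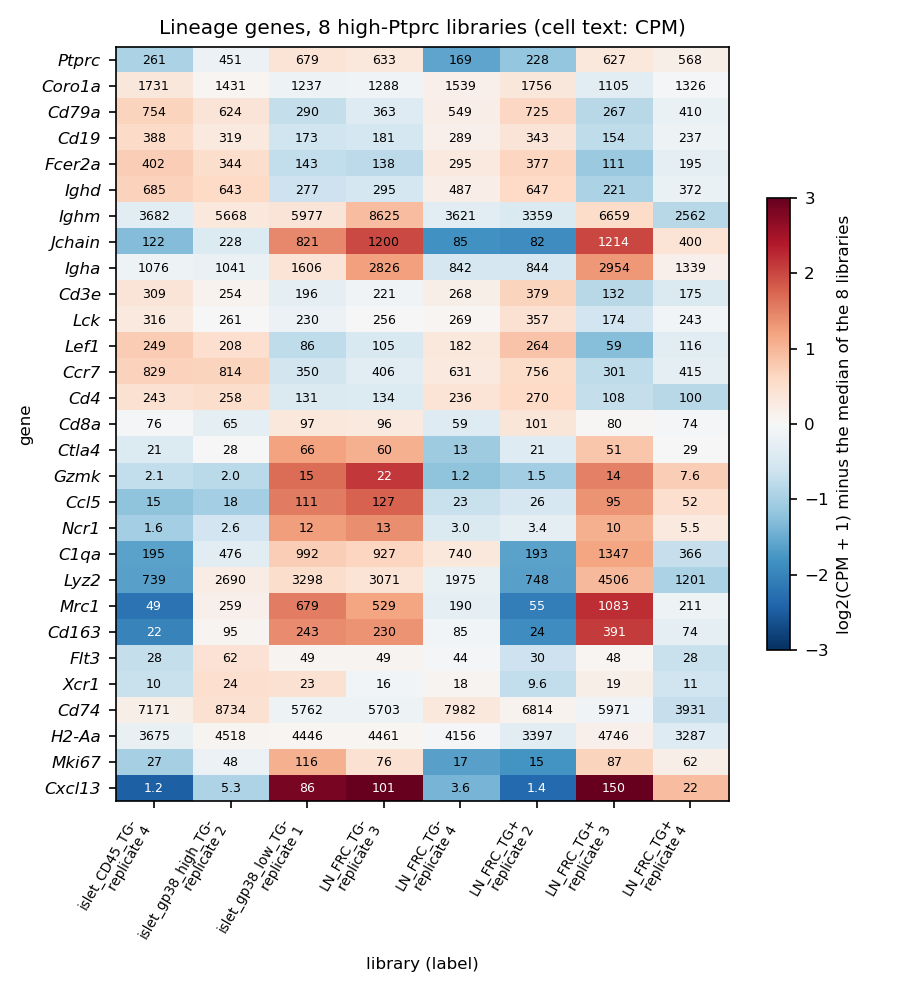
CPM of 29 lineage genes (rows) in the 8 leukocyte-side libraries (columns, by label), with colour for log2(CPM + 1) minus the gene's median over the 8. Cd79a, Cd3e and Cd74 are present in every library, while Cxcl13, Mrc1, Jchain and Ccl5 range from blue in CD45 TG- 4 and lymph node FRC TG+ 2 to red in gp38-low TG- 1 and lymph node FRC TG- 3 and TG+ 3.

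The differences among the 8 moved with the base composition of genes. Over 7927 genes, the rank correlation of a gene's deviation from the mean of the 8 with its GC content was 0.54 in CD45 TG- 4, 0.19 in gp38-high TG- 2, 0.77 in lymph node FRC TG- 4 and 0.54 in TG+ 2. It was -0.63 in gp38-low TG- 1, -0.61 in lymph node FRC TG- 3, -0.53 in TG+ 3 and -0.50 in TG+ 4. The first 4 libraries and the last 4 did not overlap in Ccr7, the homing receptor of naive T cells and mature dendritic cells (631 to 829 against 301 to 415 CPM), or in Lef1, a factor of naive T cells (182 to 264 against 59.1 to 116 CPM). Cxcl13, the chemokine that attracts B cells, measured 1.20 to 5.32 CPM in the first 4 and 22.1 to 150 CPM in the last 4. Jchain (82.3 to 228 against 400 to 1214 CPM), Gzmk (1.24 to 2.13 against 7.59 to 21.6 CPM) and Ccl5 (15.3 to 25.9 against 52.4 to 127 CPM) did not overlap either. Mrc1 (49.2 to 259 against 211 to 1083 CPM) and C1qa overlapped.

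By list, 12 of 13 cytotoxic and natural killer genes were higher in all of the last 4 libraries and none in all of the first 4. B cell genes were the reverse, with 12 of 19 higher in all of the first 4 and 1 in all of the last. This was not particular to B cell genes. Pan-leukocyte genes leaned the same way (11 of 20 and 4 of 20), as did T cell genes (8 of 22 and 2 of 22) and MHC class II genes (4 of 10 and 0 of 10). Ptprc, the selecting gene, measured 169 to 451 CPM in the first 4 and 568 to 679 CPM in the last 4. Markers of other cell types divided along the same line: 12 of 13 acinar genes were higher in all of the first 4 and none in all of the last 4, and 9 of 21 fibroblast matrix genes were higher in all of the last 4 and none in all of the first. Of all 12711 genes with a leukocyte-side median of at least 1 CPM, 2420 (19%) were higher in all of the first 4 and 1768 (13.9%) in all of the last 4. Since the same values define the GC correlation, nothing further is read from these counts, and the part of base composition, or of the acinar and fibroblast RNA, in them was not tested.

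**Figure D3:**
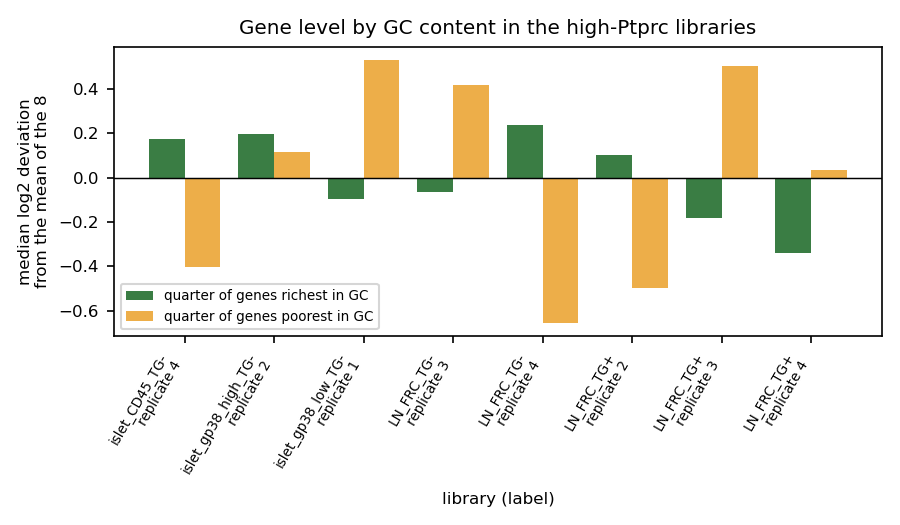
Median log2 deviation from the mean of the 8 leukocyte-side libraries (y axis) for the genes of 7927 with a GC content above 54.6% (the upper quartile) and those below 45.5% (the lower quartile), 1 pair of bars per library. The GC-poor genes run from -0.65 in lymph node FRC TG- 4 to 0.53 in gp38-low TG- 1, and the sign of the difference divides the libraries 4 against 4.

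Cell cycle genes were split in 14 of 20 cases, all toward the leukocyte side. Of all described genes, 13.7% were split toward the leukocyte side and 20.3% toward the stromal side. Mcm3, Mcm5 and Mcm2, helicase subunits that license DNA replication, measured 81.7 to 138, 91.9 to 142 and 56.8 to 109 CPM against at most 21.3, 18.7 and 24.9 CPM. Ccnb1, a mitotic cyclin, measured 8.38 to 16.4 CPM against 0.208 to 6.42 CPM. Mki67, the marker of cycling cells, overlapped, at 15.2 CPM in lymph node FRC TG+ 2 to 116 CPM in gp38-low TG- 1 against 3.70 to 51.1 CPM on the stromal side. Top2a and Pcna overlapped as well and were split under both other scalings. Immediate early genes were abundant on both sides: Fos and Egr1 were split toward the stromal side (1539 to 3836 and 2218 to 3799.8 CPM against 827 to 1286 and 333 to 595 CPM), and the other 8 overlapped.

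Outside the lists, the genes with the widest gap between the sides were named by the ratio of the lowest library on the high side to the highest on the low side, with values under 3 counts raised to 3 counts. Toward the leukocyte side this ratio was led by Gpr183 (at least 226.5-fold), an oxysterol receptor that positions B cells and dendritic cells, at 75.8 to 113 CPM against at most 0.31 CPM. Cd83, a marker of activated dendritic and B cells, measured 342 to 523 CPM against 0.0526 to 1.54 CPM, and Wdfy4, needed for cross-presentation, 576 to 1375 CPM against 0.105 to 3.64 CPM. Napsa, Hcls1, S1pr4, Cyth4, Sash3, Sla and Rasal3 were the others named, at ratios of 133 to 206. Hcls1 is a substrate of antigen receptor kinases, S1pr4 a sphingosine phosphate receptor of lymphocytes, and Sash3 and Sla are lymphocyte adaptors.

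Toward the stromal side Lama4, a laminin chain of vessel and muscle basement membranes, led with a ratio of 166 (375 to 986 CPM against 0.638 to 2.25 CPM). C1s1, a protease of the complement C1 complex, measured 708 to 2660 CPM on the stromal side and at most 4.82 CPM among the 8. The C1q genes and C1s1, whose products act in the same complex, were thus split to opposite sides. Igfbp5, an IGF-binding protein, measured 1642 to 17762 CPM against 3.68 to 13.9 CPM, and Aebp1, a collagen-binding protein, 705 to 2717 CPM against 1.49 to 5.36 CPM. Zfhx4, Boc, Col16a1, Antxr1, Sod3 and Plekhh2 were the others named, at ratios of 106 to 134.

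Fibroblast matrix genes were split toward the stromal side in 22 of 24 cases, with a median ratio of 313-fold. Col3a1, collagen III, measured 4148 to 17882 CPM on the stromal side and 9.79 to 41.2 CPM among the 8. Col1a2, of collagen I, measured 1964 to 7726 CPM against 4.79 to 21.2 CPM, and Pdgfra, the receptor that marks fibroblasts, 123 to 1701 CPM against 0.326 to 4.58 CPM. Fn1, fibronectin, overlapped: gp38-high TG- 2 and lymph node FRC TG- 4 held 747 and 771 CPM of it, next to the stromal minimum of 752 CPM, while the other 6 held 120 to 336 CPM. Timp2, a protease inhibitor, was split but stood at 75.9 to 245 CPM among the 8. Icam1, an adhesion ligand, had a leukocyte-side median of 138 CPM against 169 CPM.

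Pericyte genes were split toward the stromal side in 10 of 11 cases, adventitial fibroblast genes in 9 of 12 and reticular stroma genes in 10 of 17. Rgs5, counted among the split pericyte genes, had another call under both other scalings. Ly6a, Dpp4 and Anxa3 were the overlapping adventitial genes, and Dpp4, the CD26 peptidase, measured 21.0 to 62.4 CPM among the 8 against 5.78 to 406 CPM. Mesothelial and ductal genes were mostly not split (1 of 8 and 2 of 11), no more than the 20.3% of all described genes. A split asks for every stromal-side library, and only 4 of them held over 100 CPM of the mesothelial gene Msln. Nothing is read from these 2 counts. Among endothelial genes, Pecam1, the CD31 of endothelium and of leukocytes, and Lyve1, of lymphatic endothelium and macrophages, were split toward the leukocyte side. Pecam1 measured 51.2 to 150 CPM against 0.378 to 8.83 CPM. Cdh5, the cadherin of endothelium, stayed at 1.96 to 5.83 CPM among the 8.

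Of 19 receptor genes described, 12 were split toward the leukocyte side and 3 toward the stromal side. Of 19 ligand genes, 4 were split toward the leukocyte side and 8 toward the stromal side. Over all described genes the shares were 13.7% and 20.3%, and nothing is read from the counts of 4 ligand and 3 receptor genes. The other 7 ligand and 4 receptor genes overlapped. Cxcr4, the receptor for CXCL12, measured 567 to 1006 CPM against 1.0 to 97.2 CPM, and Cxcl12 itself 0.435 to 8.34 CPM among the 8 against 96.4 to 6042 CPM. Csf1r measured 267 to 1139 CPM against 1.92 to 105 CPM, and its ligands Csf1 (7.37 to 14.6 against 284 to 516 CPM) and Il34 (at most 0.326 against 12.1 to 44.1 CPM) were split the other way. Tnfrsf13c, the receptor by which B cells take survival signals from BAFF, measured 29.9 to 73.6 CPM against at most 0.366 CPM, and Tnfsf13b, which encodes BAFF, 0.354 to 5.52 against 11.8 to 182 CPM.

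Il7r, which sustains T cells, measured 14.4 to 44.8 CPM against at most 0.552 CPM. Il7 was listed at 0 in 6 of 8 leukocyte-side libraries and measured 0.706 to 104 CPM on the stromal side. Ccr7 measured 301 to 829 CPM and Cxcr5, the CXCL13 receptor, 110 to 351 CPM, against at most 2.01 and 0.827 CPM. Their ligands did not all follow: Ccl19 was split toward the stromal side (1.30 to 984 against at most 0.704 CPM), but Ccl21a ranged from 0 to 5685 CPM there, and Cxcl13 from 3.32 to 448 CPM. Ccl21a has near-identical copies, and its values are uncertain. Among the 8 it measured 0.435 to 2.23 CPM, and Cxcl13 reached 150 CPM in lymph node FRC TG+ 3.

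The lymphotoxin pair ran the opposite way. Ltb and Lta, whose products signal from lymphocytes to stroma, measured 124 to 255 and 5.52 to 14.4 CPM among the 8 against 0.211 to 20.2 and at most 0.223 CPM. Ltbr, their receptor, measured 52.4 to 104 CPM on the stromal side and 8.43 to 26.3 CPM among the 8. Tnf (43.1 to 86.1 against 0.492 to 6.58 CPM) and Tgfb1 (210 to 378 against 11 to 23.2 CPM) were split toward the leukocyte side. Of the TNF receptors, Tnfrsf1a was split toward the stromal side (121 to 314 against 37.1 to 96.9 CPM), though with TMM factors its sides overlapped, and Tnfrsf1b overlapped. Kitl (14.7 to 137 against 0.218 to 13.3 CPM) was split toward the stromal side, a call lost with the reduced total, while Kit overlapped (25.8 to 58.5 among the 8, 1.14 to 81.8 CPM on the stromal side). The integrin genes Itga4, Itgal and Itgb7 were split toward the leukocyte side at 59.0 to 191, 231 to 382 and 219 to 442 CPM, whereas the ligand genes Vcam1 and Icam1 overlapped. Clec1b, the podoplanin receptor of platelets, was under 1 CPM in median on both sides.

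**Figure D4:**
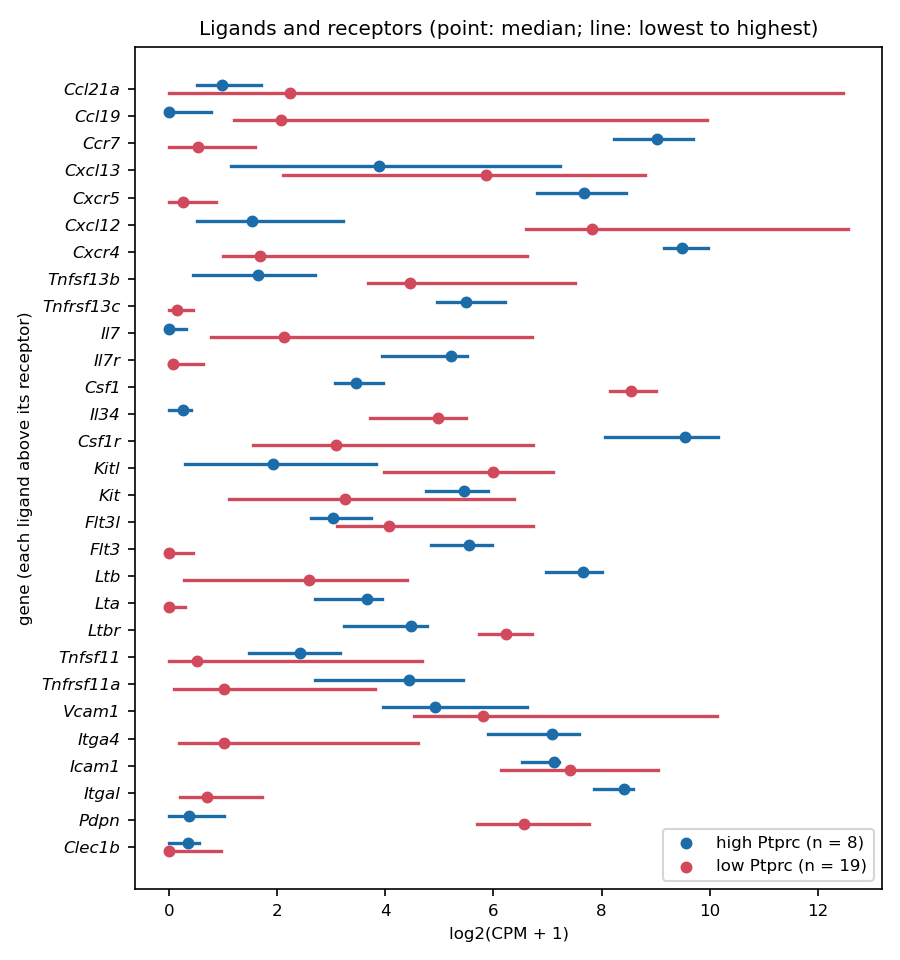
Level of 29 ligand and receptor genes as log2(CPM + 1), each gene on its own row, with the median (point) and the lowest to highest library (line) on the leukocyte side (8 libraries) and the stromal side (19 libraries). Ccr7, Cxcr5, Cxcr4, Csf1r, Flt3 and Il7r lie to the right in the leukocyte side, and Cxcl12, Csf1, Il34, Il7, Ltbr and Pdpn in the stromal side.

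Leukocyte messengers were rare on the stromal side, and unevenly so. The median pan-leukocyte gene stood at 0.0564% to 0.570% of its leukocyte-side median in the 19 libraries, highest in CD45 TG+ 3. For B cell genes the range was 0.0104% to 0.796%, and for T cell genes 0.0211% to 1.09%. MHC class II genes stood at 0.114% to 1.70%, above the pan-leukocyte value in 18 of 19 libraries. The median cytotoxic and natural killer gene was at 0 in all 19.

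**Figure D5:**
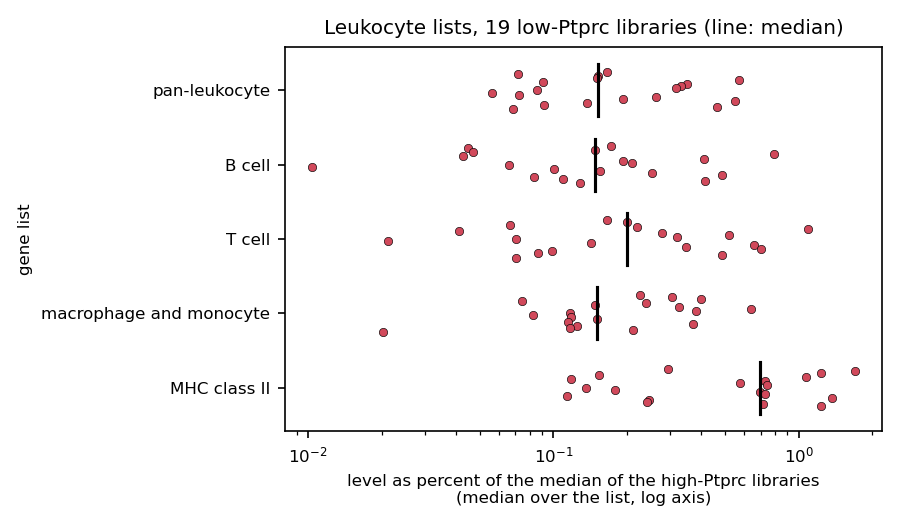
Level of 5 leukocyte gene lists in each of the 19 stromal-side libraries (points), as percent of the leukocyte-side median on a log axis, each point being the median over the list. The black line marks the median library, at 0.152% for pan-leukocyte genes and 0.697% for MHC class II genes.

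Some leukocyte-list genes were high in particular stromal-side libraries that held little Ptprc. In the 7 with over 1000 CPM of Ccl21a, the chemokine of T cell zone stroma, Spib measured 183 to 246 CPM, Irf8 204 to 228 CPM and Srgn 73.2 to 139 CPM. In the other 12 they measured 0.761 to 16.6, 6.80 to 15.8 and 3.25 to 10.3 CPM. Cxcr4 (37.1 to 97.2 against 1.0 to 2.37 CPM), Itga4 (9.83 to 23.4 against 0.141 to 1.62 CPM) and Lcp1 (17.6 to 29.0 against 0.516 to 2.59 CPM) divided the same way. Apoe measured 10599 to 16123 CPM in the 7 and 675 to 1786 CPM in the 12. Ptprc itself measured 1.28 to 5.79 CPM in the 7 and 0.175 to 1.73 CPM in the 12. These cuts were chosen after the values were seen.

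In 4 other stromal-side libraries, those with over 100 CPM of the mesothelial gene Msln, Csf1r measured 92.3 to 105 CPM against 1.92 to 28.8 CPM in the remaining 15. Cd74 measured 67.2 to 197 CPM and H2-Aa 20.0 to 65.7 CPM in the same 4, with Ptprc at 0.175 to 1.13 CPM. Both overlapped with the remaining 15, which held 7.88 to 135 CPM of Cd74 and 2.09 to 44.1 CPM of H2-Aa. C1qa, which is read with Csf1r as a macrophage gene, was at most 0.833 CPM in every stromal-side library.

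Pancreatic RNA was present on the leukocyte side under islet and lymph node labels alike. The 15 acinar genes, which encode digestive enzymes, summed to 5170 CPM in lymph node FRC TG- 4, 3795 in gp38-high TG- 2, 1705 in CD45 TG- 4 and 1542 in lymph node FRC TG+ 2. They summed to 766 CPM in lymph node FRC TG- 3, 681 in gp38-low TG- 1, 519 in TG+ 3 and 397 in TG+ 4 of the lymph node label. Ins2, insulin 2, measured 82.4 CPM in gp38-high TG- 2 and 71.1 CPM in lymph node FRC TG- 4 and at most 6.18 CPM in the other 6. The highest acinar level and the second-highest Ins2 level among the 8 were therefore in a library labelled as lymph node. None of the 13 acinar or 9 islet endocrine genes described was split.

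The genotype label was not used to choose the libraries, so it could be compared within them. It belongs to the same labels that disagree with the sort genes, and whether it is right for each library was not tested. The differences below are therefore between labels. Among the lymph node FRC libraries of the leukocyte side, 3 TG+ were compared with 2 TG- in edgeR's quasi-likelihood test over 14113 genes. The 3 islet TG- libraries stayed in the fit for the estimate of spread. No gene was called (0%) at a Benjamini-Hochberg adjusted p under 0.05, 125 genes had an unadjusted p under 0.05, and DESeq2 called 0 with 198 under 0.05. The largest list-level difference was in islet endocrine genes: 9 of 10 tested were lower in TG+, with a median log2 difference of -3.48 against -0.02 over all genes. Their summed CPM was 264 in TG- 4 and 42.6 in TG- 3 against 11.3 to 22.5 in the TG+ libraries. Sst, somatostatin, measured 15.3 and 52.6 CPM in TG- 3 and TG- 4 and 3.26, 5.05 and 1.73 CPM in TG+ 2, TG+ 3 and TG+ 4, a log2 difference of -3.39 ± 0.74 (SE) that did not pass (edgeR Benjamini-Hochberg adjusted p = 0.99973). All 15 acinar genes were lower, at a median of -1.82, with lymph node FRC TG- 4 holding the most acinar RNA of the 8. Of all 14113 genes, 6754 were higher in TG+. Lymphocyte lists showed small differences: 15 of 19 B cell genes were higher in TG+ at a median of 0.13 and 18 of 22 T cell genes at a median of 0.11, and none was called. These medians come from TMM-scaled genes in 3 against 2 libraries, and they differ in sign from the summed CPM of both lists over 3 against 5 libraries, at -0.30 and -0.17.

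The tissue label was tested in the same fit, with 3 islet against 2 lymph node TG- libraries. Whether this label is right for each library was not tested either. Again 0 of 14113 genes were called (0%) by edgeR, 68 had an unadjusted p under 0.05, and DESeq2 called 0. All 20 macrophage genes were lower under the islet label at a median log2 difference of -0.52, and 18 of 19 B cell genes were higher at a median of 0.21, against a median of -0.01 over all genes. Of all 14113 genes, 6797 were higher under the islet label. Genes of a list move together, and the libraries did not separate. The summed macrophage list was 2355, 7190 and 10985 CPM under the islet label and 10112 and 7611 CPM under the lymph node label. In the same comparison all 15 acinar genes were lower at a median of -0.68 and all 13 cytotoxic and natural killer genes at -0.44, and all 20 cell cycle genes were higher at 0.12. No member of these lists was called, and the part of acinar RNA or of base composition was not tested. A p that misses the threshold does not show that the groups are alike.

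Summed lists were compared between 3 TG+ and 5 TG- libraries by exact two-sided permutation tests, whose smallest possible p is 0.0179. All 3 TG+ libraries carry the lymph node label and 3 of the 5 TG- libraries an islet label, so this comparison mixes genotype with tissue label. Mean log2 summed CPM of the B cell list was 12.86 ± 0.32 (SD, n = 3) in TG+ and 13.16 ± 0.24 (SD, n = 5) in TG-, and of the MHC class II list 13.93 ± 0.28 and 14.19 ± 0.13. The macrophage list stood at 12.38 ± 1.35 in TG+ and 12.73 ± 0.89 in TG-. In each of these lists the SD in TG+ exceeds the difference, and for macrophage genes the SD in TG- does so as well. None of 8 lists passed, with exact permutation p of 0.125 to 0.643 and adjusted p of 0.343 to 0.643. Nothing in the labels ties each library to its own mouse, and the p-values therefore describe the spread among these libraries, which may be technical.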

How the data were processed

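Cells were sorted into TRIzol, and total RNA was column-purified and made into libraries with a KAPA kit that depletes ribosomal RNA, per the labels' protocols. The submitters' processing notes name bcl2fastq 2.17, Trim Galore 0.4.3, STAR 2.5.2a and the build mm10. Which gene annotation was counted is not stated there or in the file headers. The deposited tables, 1 per library, hold raw read counts per gene in STAR's layout for unstranded, forward and reverse reads. Forward counts were 6.67% to 15.3% of both strands, so reverse counts were used. Lines that name no gene stayed out of totals: unmapped reads were 19.4% to 67.7%, multimapped 4.98% to 7.28%, and those outside genes or ambiguous 6.37% to 26.8%. Of 54446 identifiers, 53229 matched GENCODE M21 of GRCm38 exactly and 1180 without version. 37 did not match.

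Tests within the leukocyte side used edgeR 4.0.16 (TMM, filterByExpr, robust quasi-likelihood, Benjamini-Hochberg) in R 4.3.3, with DESeq2 1.42.0 as an alternative. Python 3.11.15 was used elsewhere. On simulated data for the genotype comparison (13676 genes, dispersion as estimated), edgeR recovered 74 of 100 genes changed 4-fold and 100 of 100 changed 16-fold, with 8 false calls. The changed genes were drawn from those above the median level, and all were raised in TG+. Counts were drawn independently, without the GC pattern of the real libraries, so these figures do not give the power in the real comparison. Alternatives were TMM and reduced totals, unstranded counts, other filters and ratios, a replicate block, and leaving out each library.

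Named genes were the markers, ITAM adaptors, ligands and receptors, and the members of each list with the highest medians or against its direction. Protein-coding genes outside the lists with the widest gap between sides were added, under the filter on the median given above. Acinar, islet, and subset genes named for the spread among the 8 libraries were chosen after their values were seen. Members and lists were chosen with earlier results of these data known.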

Additional observations from a re-analysis of the deposited data

Results flagged for a closer look

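Of 32 measures screened over the 8 leukocyte-side libraries, 1 had a library standing apart by Dixon's criterion at the 95% level. The summed CPM of the chemokine and lymphoid cytokine ligand genes was 646 in lymph node FRC TG+ 4, below the 796 to 888 CPM of the other 7. Chance alone gives such a flag in about 1 of 20 groups.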

How the results depend on the processing

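Under most alternatives the counts of split genes stayed within 1.5 times the main counts of 2082 toward the leukocyte side and 3070 toward the stromal side. With each of the 27 libraries left out in turn they ran from 2083 to 2228 and from 3070 to 3341. A split asks for every library, so leaving out a library can hardly lower a count. The range therefore does not measure how stable the counts are. The leukocyte count was 3140 when Gm26917, mitochondrial and immunoglobulin genes were left out of the total. Requiring a 4-fold gap between the sides left 868 and 1257. Both label comparisons called 0 genes under every alternative run, with each library left out (0 to 0) and with the replicate block (0 and 0), and the smallest adjusted p was 0.0572, with DESeq2 for genotype. In the block fit, 171 genes for genotype and 62 for tissue label had an unadjusted p under 0.05. Whether shared replicate numbers pair the lymph node libraries could not be judged, because the deviations of 2 TG- libraries from their mean mirror each other.

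With each library left out, the log2 difference of summed lists, TG+ minus TG-, ran from -0.43 to -0.12 for B cell, -0.46 to 0.09 for T cell, -1.10 to 0.20 for macrophage, -0.45 to -0.21 for dendritic cell, -0.37 to -0.11 for MHC class II, -0.35 to -0.17 for cell cycle, -1.96 to -0.99 for acinar and -0.64 to -0.25 for fibroblast matrix genes. The T cell value was 0.087 without lymph node FRC TG+ 3, and the macrophage value 0.20 without TG+ 2. The cause was not tested. Adjusted p over all alternatives ran from 0.229 upward. In the shallowest library, with 8517844 reads in genes, a level under 0.352 CPM cannot be told from 0.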
